A study of Mus musculus with 375 samples.

Results

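The cells described here are those that carried the least Lgr5 transcript among mouse small-intestinal cells sorted as Lgr5-positive. They were chosen by their Lgr5 level in TPM (the length-scaled share of each gene among a cell's transcripts). Within each of 4 sets, 91, 92, 93 and 91 cells had at least 2000 genes above 0 TPM, and the 23 of lowest Lgr5 in each set were taken, 92 members in all (Lgr5-low cells). A further 8 cells did not pass. The cells came by flow cytometry from the intestine of mice fed a high-fat diet (HFD) or a control diet and were sequenced with Smart-seq2, a plate-based method that reads full-length cDNA from 1 cell per well. The titles divide them into HFD 1 (93 cells), HFD 2 (94), control 1 (94) and control 2 (94), and what all of them share is the sort for Lgr5. The labels give neither the reporter or antibody of the sort, nor the strain, age and sex of the mice, nor the makeup and duration of the diets, nor whether each set is a separate mouse. The members were compared with the 23 cells of highest Lgr5 in each set (Lgr5-high cells, 92 in all) across all other genes, with the set as the unit of replication (n = 4 sets), so p-values cover only the spread between these sets, which may be technical. Values over sets are always listed for HFD 1, HFD 2, control 1 and control 2.

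Lgr5 encodes a receptor for R-spondins, secreted proteins that strengthen Wnt signalling, and is itself a Wnt target. In the small intestine it marks the columnar stem cells at the crypt base, which lie between Paneth cells. Their daughters leave the base, divide rapidly as transit-amplifying progenitors, and become absorptive enterocytes or, where Notch signalling is low, secretory cells (goblet, Paneth, enteroendocrine and tuft cells). A cell can keep a sorted marker protein after its transcript has declined, and a single-cell library can also miss a transcript that is present.

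Lgr5 (chromosome 10, 115450311 to 115587780 on the minus strand, GRCm38/mm10) averaged 11.7, 14.96, 20.7 and 12.5 TPM in the Lgr5-low cells, against 339.6, 312.8, 363.4 and 281.4 TPM in the Lgr5-high cells. These values define the groups and are given without a test. The highest member carried 29.29, 38.25, 44.64 and 34.84 TPM, and the next cell above it carried 30.06, 39.07, 45.31 and 35.41 TPM, so the border cuts through a continuous range. Lgr5 was listed at 0 in 15 members (4, 4, 4 and 3 cells), which are all the passing cells without it, and the other 77 members held some.

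**Figure D1:**
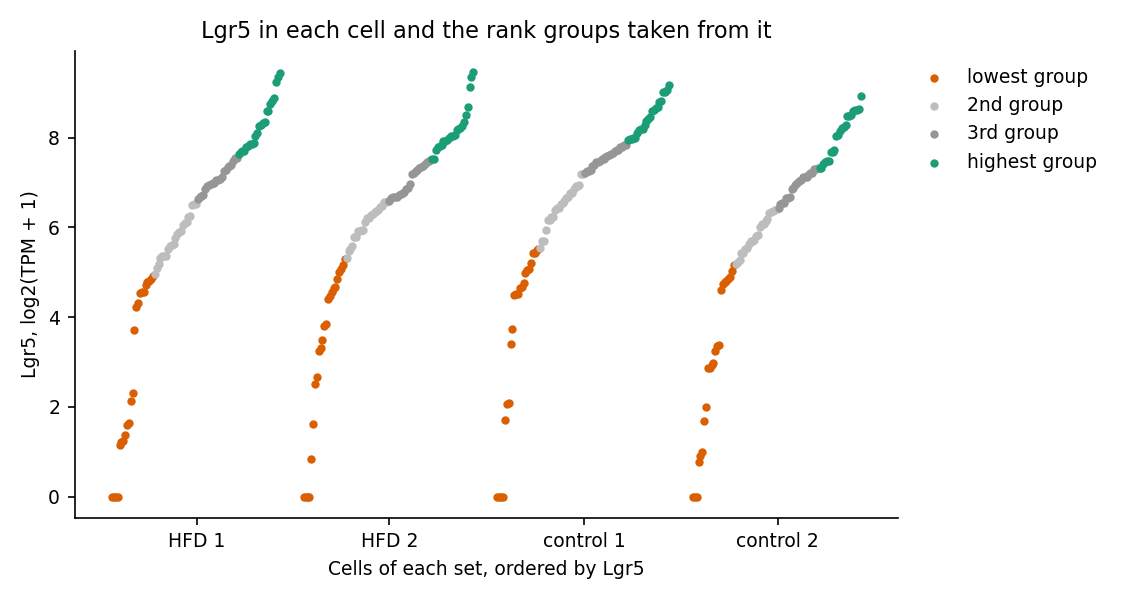
Lgr5 as log2(TPM + 1) on the y axis in each passing cell, ordered within each set along the x axis, with 1 point per cell and colours for the 4 groups of Lgr5 rank in a set. The 15 cells at 0 lie at the foot of the Lgr5-low cells, and no gap separates the Lgr5-low group from the next.

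The members carried the markers of intestinal epithelium. The 7 pan-epithelial genes (Krt8, Vil1 and others) had mean log2(TPM + 1) levels of 8.79, 8.86, 8.58 and 8.94 in the Lgr5-low cells and 8.70, 9.004, 8.63 and 8.81 in the Lgr5-high cells, and Ptprc, the common leukocyte gene, was at 0 in every member (0 of 92 cells, where 3 counts of 92 set an upper limit of 3.26% for cells with a detected transcript). Some T cell and myeloid genes were detected, however. At 1 TPM or more, Cd3d, Cd8a, Lck, Cd14 and Itgam were found in 22, 23, 5, 27 and 21 of 92 members. In the 92 Lgr5-high cells the counts were 23, 33, 3, 22 and 12. The Lgr5-low cells held more detected genes in each set, with medians of 7102, 6457, 7299 and 6509 genes above 0 TPM, against 6162, 5813, 6915 and 5788 in the Lgr5-high cells (mean difference of 500.01 ± 197.7 genes, SD over 4 sets). Rn45s, the ribosomal RNA precursor, took 25.1%, 18.3%, 38.9% and 24.5% of TPM in the Lgr5-low cells and 27.9%, 18.8%, 39.8% and 24.99% in the Lgr5-high cells. The number of reads per cell cannot be had from TPM, and a transcript listed at 0 may have been missed. Cells with at least 3 markers of 1 secretory lineage at 100 TPM or more, a threshold chosen after seeing the data, numbered 18 among the Lgr5-low and 17 among the Lgr5-high cells.

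Across 11730 genes, 95 differed between the Lgr5-low and Lgr5-high cells (limma on log2(mean TPM + 1), set as a block, Benjamini-Hochberg adjusted p under 0.05), which is 0.810% of those tested. Of these, 58 were higher (0.494%) and 37 lower (0.315%) in the Lgr5-low cells, all 95 with the same direction in all 4 sets, and the median log2 difference of all genes was −0.016. Averaging the logarithms of single cells in place of their TPM gave 503 higher and 120 lower calls around a median of 0.17. Removing 1 set left 48 higher and 32 lower calls without HFD 1, 18 and 11 without HFD 2, 9 and 8 without control 1, and 13 and 10 without control 2. In all 4 of these reduced fits 12 genes were called, the rises Tubb4b, Birc5, Ube2c, Tuba1b, Fabp2, Lgals2 and Dmbt1 and the falls Olfm4, Gkn3, Soat1, Chp1 and Pdgfa. No call was made when the fit assumed no trend of the spread with the level, or when genes under a mean of 1 TPM were kept, although 1350 and 1686 genes then had an unadjusted p under 0.05, against 1675 here.

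**Figure D2:**
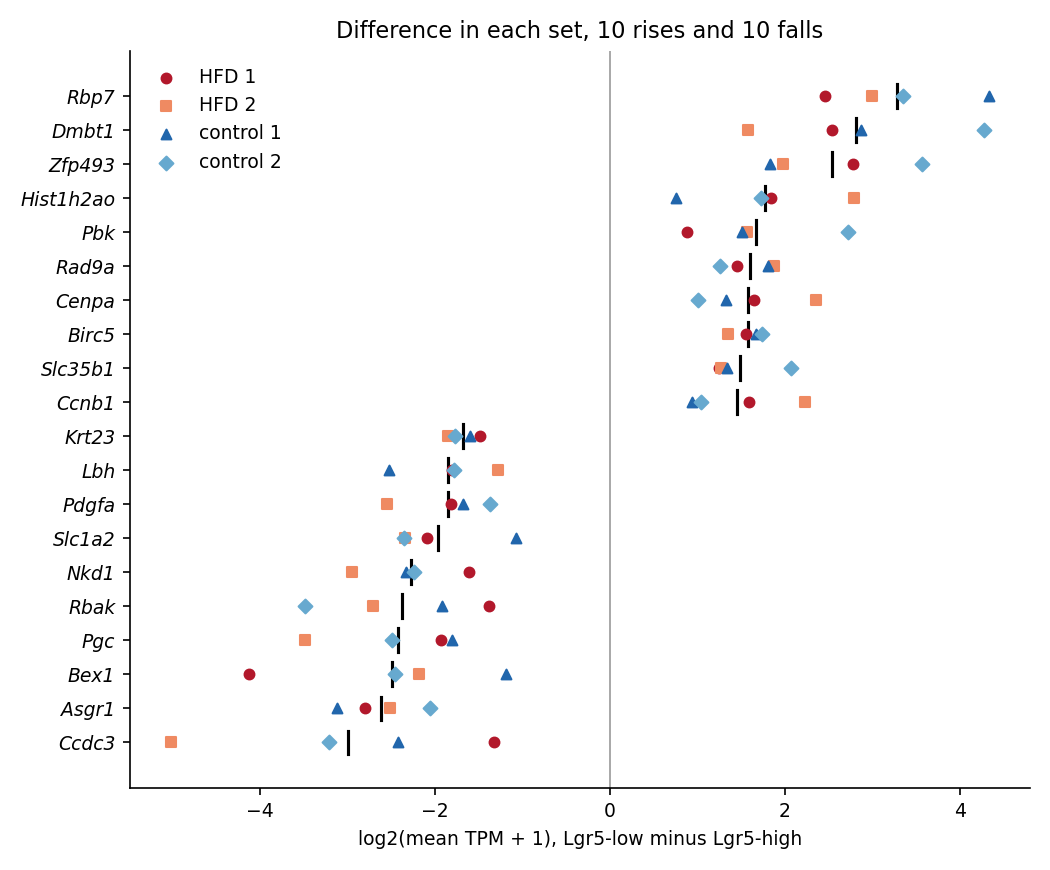
Lgr5-low minus Lgr5-high values of log2(mean TPM + 1), on the x axis, for the 10 called genes that rose most and the 10 that fell most, with 1 symbol per set and a black bar at the mean of the 4 sets. Every symbol of a rise lies right of 0 and every symbol of a fall lies left of it.

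Some genes of the crypt base programme fell with Lgr5 but stayed detectable. Olfm4, a secreted glycoprotein of crypt base stem cells (chromosome 14, 79984081 to 80023139), had 5898, 7178, 4618 and 7013 TPM in the Lgr5-low cells and 11946, 15248, 9722 and 11472 TPM in the Lgr5-high cells (log2 difference of −0.97, SE 0.059, adjusted p = 0.000128 in limma). The groups did not overlap, yet 91 of 92 members carried at least 1 TPM of it, as did 92 of 92 Lgr5-high cells. Gkn3, which encodes a secreted gastrokine, had 355.8, 369.4, 214.2 and 200.5 TPM in the Lgr5-low cells, against 702, 776, 484 and 651 TPM in the Lgr5-high cells (log2 difference of −1.23, SE 0.12, adjusted p = 0.00305 in limma). Soat1, the enzyme that esterifies cholesterol, had 152.3, 106.6, 162.3 and 129.4 TPM in Lgr5-low against 270.1, 265.7, 339.3 and 339.7 TPM in Lgr5-high cells (log2 difference of −1.14, SE 0.13, adjusted p = 0.00504 in limma). For these 3 genes the highest adjusted p with any 1 set left out was 0.00525, 0.0288 and 0.0476.

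Of 36 crypt base stem cell genes, all of which were tested, 6 fell and none rose (0.315% and 0.494% of all genes). In all 4 sets 25 were lower and none higher, where the shares over all genes were 11.1% lower and 11.01% higher. Their median log2 difference was −0.68 beside −0.016 for all genes. Besides Olfm4, Gkn3 and Soat1, the falls were Rgmb, a co-receptor for BMP ligands (57.7, 52.2, 90.6 and 100.6 TPM in the Lgr5-low cells, against 155.7, 147.1, 178.02 and 152.9 TPM in the Lgr5-high cells), and also Ephb3 and Clca4. Ephb3, an ephrin receptor that positions cells along the crypt, had 21.8, 22.5, 18.5 and 10.95 TPM in Lgr5-low against 41.8, 61.9, 56.2 and 43.9 TPM in Lgr5-high cells. Clca4, of the chloride channel accessory family, had 851, 503, 878 and 557 TPM in Lgr5-low against 1029, 714, 1255 and 709.6 TPM in Lgr5-high cells. Their log2 fold changes were −1.12, −1.45 and −0.41 (limma adjusted p = 0.0222, 0.0255 and 0.046), and each lost its call when some single set was left out (highest adjusted p 0.105, 0.152 and 0.234). The Clca4 groups overlapped across sets. Several textbook stem cell genes did not pass. Smoc2, a matricellular protein, had 390.98, 289.8, 253.6 and 363.2 TPM in Lgr5-low against 453, 661, 395.5 and 432 TPM in Lgr5-high cells (log2 difference of −0.57, SE 0.15, adjusted p = 0.117 in limma). Slc12a2, a sodium, potassium and chloride cotransporter, had 110.8, 112.8, 91.3 and 102.6 TPM in Lgr5-low against 189.2, 160.2, 127.6 and 167.999 TPM in Lgr5-high cells (log2 difference of −0.61, SE 0.13, adjusted p = 0.0679 in limma). Ascl2, the transcription factor of stem cell identity, had 90.6, 69.7, 62.2 and 57.04 TPM in Lgr5-low against 80.7, 135.9, 75.8 and 58.6 TPM in Lgr5-high cells and its groups overlapped (log2 difference of −0.28, SE 0.20, adjusted p = 0.595 in limma).

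The level of the whole stem cell list was lowest in the Lgr5-low cells of every set. Averaged over the cells of a group, its mean log2(TPM + 1) was 4.85, 4.30, 4.90 and 4.53 in the Lgr5-low cells and 5.52, 5.38, 5.84 and 5.51 in the Lgr5-high cells, a difference of −0.92 ± 0.17 (SD over 4 sets; exact two-sided sign-flip permutation p = 0.125, the smallest that 4 sets allow, 0.26 adjusted over 27 scores). Across the 4 groups of Lgr5 rank, low to high, the score was 4.853, 5.170, 5.583 and 5.524 in HFD 1, 4.304, 5.117, 5.101 and 5.379 in HFD 2, 4.899, 5.349, 5.604 and 5.838 in control 1 and 4.526, 5.028, 5.112 and 5.511 in control 2. In HFD 2 most of the difference lay in the first step, while in control 1 each step added to it. Olfm4, in the same order, was 5898, 7586, 12096 and 11946 TPM in HFD 1, 7178, 12166, 12489.7 and 15248 TPM in HFD 2, 4618, 6086, 7398 and 9722 TPM in control 1 and 7013, 8302, 10327 and 11472 TPM in control 2. It climbed at each step except the last of HFD 1. The score exceeded its set's median in 18 of 92 members and in 71 of 92 Lgr5-high cells, so the members were not uniform in it.

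**Figure D3:**
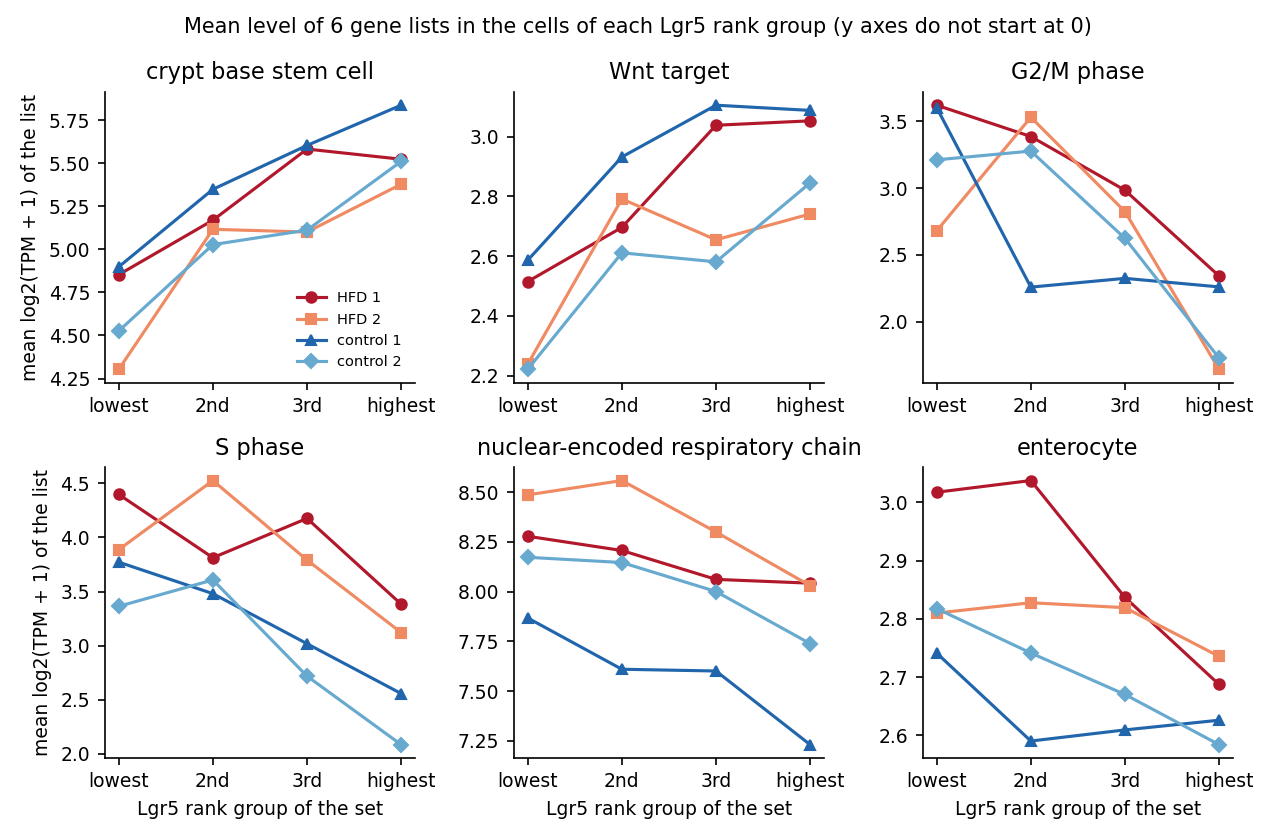
Mean log2(TPM + 1) of 6 gene lists (y axes, which do not start at 0) in the cells of each Lgr5 rank group, low to high (x axes), with 1 line per set. The stem cell and Wnt target lists are lowest in the Lgr5-low group of every set, and in every set the S phase, G2/M, respiratory chain and enterocyte lists are higher in the Lgr5-low than in the Lgr5-high group.

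Among Wnt target genes, 2 of 17 tested fell and none rose (0.315% and 0.494% of all genes). In all 4 sets 13 were lower and none higher (11.1% and 11.01% of all genes). Their median log2 difference was −0.64. The 2 were Ephb3 and Nkd1, a feedback inhibitor that binds Dishevelled. Nkd1 had 2.64, 0.159, 0.197 and 1.39 TPM in the Lgr5-low cells and 10.1, 7.92, 4.99 and 10.2 TPM in the Lgr5-high cells (log2 difference of −2.28, SE 0.44, adjusted p = 0.0463 in limma), low levels carried by 11 of 92 members and 23 of 92 Lgr5-high cells at 1 TPM or more. Sox9, a transcription factor of crypt progenitors, had 42.98, 49.1, 59.5 and 44.7 TPM in Lgr5-low against 88.3, 97.7, 92.5 and 73.9 TPM in Lgr5-high cells (log2 difference of −0.84, SE 0.17, adjusted p = 0.0589 in limma), without overlap but short of the threshold. Sp5, a transcriptional repressor in the pathway, had a log2 difference of −1.67, adjusted p = 0.0935. Cd44, an adhesion receptor for hyaluronan, had a log2 difference of −0.67, adjusted p = 0.17, and Ephb2, another ephrin receptor, of 0.23, adjusted p = 0.796. Axin2, the classical feedback target, had 54.9, 47.9, 63.3 and 34.2 TPM in Lgr5-low against 61.97, 52.4, 77.1 and 73.4 TPM in Lgr5-high cells (log2 difference of −0.41, SE 0.21, adjusted p = 0.413 in limma), and its groups overlapped.

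The receptor side of the pathway showed less. None of 10 tested Wnt receptors and co-receptors was called by limma, 2 were lower and 1 higher in all 4 sets (11.1% and 11.01% of all genes), and the list's median was −0.19. At an unadjusted p under 0.05 the whole comparison held 1675 of 11730 genes, so the absence of calls here does not show that these genes were level. Lgr4, the paralogue of Lgr5, had 14.6, 7.55, 15.5 and 15.01 TPM in the Lgr5-low cells and 20.02, 12.3, 23.04 and 26.4 TPM in the Lgr5-high cells (log2 difference of −0.60, SE 0.27, adjusted p = 0.345 in limma). Rnf43 and Znrf3, of the stem cell list above, encode membrane ubiquitin ligases that remove Frizzled receptors and are held back by R-spondin. Rnf43 had 32.8, 42.5, 80.3 and 50.6 TPM in Lgr5-low against 82.7, 68.9, 101.03 and 94.03 TPM in Lgr5-high cells (log2 difference of −0.80, SE 0.20, adjusted p = 0.0935 in limma). Znrf3 had 11.1, 8.32, 10.497 and 10.2 TPM in Lgr5-low against 24.3, 15.8, 22.6 and 21.1 TPM in Lgr5-high cells (log2 difference of −0.98, SE 0.27, adjusted p = 0.126 in limma). Both were lower in each set and neither passed. The Frizzled receptors Fzd5, Fzd6 and Fzd7 had log2 differences of 0.46, −1.01 and −0.74 (limma adjusted p = 0.45, 0.439 and 0.365).

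The largest called falls outside these lists were genes of varied kinds. Pdgfa, a platelet-derived growth factor ligand (chromosome 5, 138976014 to 138997370), had 24.9, 39.7, 51.6 and 87.5 TPM in the Lgr5-low cells and 90.4, 235.5, 167.5 and 227.99 TPM in the Lgr5-high cells (log2 difference of −1.85, SE 0.20, adjusted p = 0.0036 in limma). It was found at 1 TPM or more in 45 of 92 members and 74 of 92 Lgr5-high cells. Pgc, the precursor of the digestive protease gastricsin, had 16.4, 4.81, 7.85 and 3.98 TPM in Lgr5-low against 65.1, 63.8, 29.8 and 27.04 TPM in Lgr5-high cells (log2 difference of −2.42, SE 0.33, adjusted p = 0.00886 in limma). Slc1a2, a glutamate transporter, had 14.4, 14.3, 19.01 and 8.74 TPM in Lgr5-low against 64.5, 76.2, 40.98 and 48.5 TPM in Lgr5-high cells (log2 difference of −1.96, SE 0.27, adjusted p = 0.0101 in limma), and Krt23, a type I keratin, had 11.4, 10.97, 12.2 and 14.6 TPM in Lgr5-low against 33.5, 41.96, 38.98 and 52.2 TPM in Lgr5-high cells (log2 difference of −1.67, SE 0.24, adjusted p = 0.0116 in limma). These 4 had groups that did not overlap. The others were Ccdc3 (−2.99), Asgr1, a subunit of the asialoglycoprotein receptor (−2.62), Bex1 (−2.49), Rbak (−2.37) and Lbh, a transcriptional cofactor (−1.84), at adjusted p of 0.0314 to 0.0384. Asgr1 rested on few cells, at 1 TPM or more in 1 of 92 members and 15 of 92 Lgr5-high cells, and so did Bex1 (6 Lgr5-low and 13 Lgr5-high cells). Of the 10 largest falls, all but Pdgfa lost their call when some single set was left out (highest adjusted p between 0.0574 and 0.206).

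Further called falls were single genes of several kinds. Jun, a subunit of the AP-1 transcription factor, had 21.1, 28.4, 34.1 and 19.3 TPM in the Lgr5-low cells and 85.4, 83.1, 71.98 and 73.4 TPM in the Lgr5-high cells (log2 difference of −1.60, SE 0.21, adjusted p = 0.00886 in limma; 0.065 with the most influential set left out). It was the only called fall among 16 tested immediate early and heat shock genes, of which 5 were lower and 1 higher in all 4 sets (0.315% of all genes were called lower, 11.1% were lower and 11.01% higher in all 4 sets). The heat shock protein gene Hsp90aa1 was called higher (0.71, adjusted p = 0.0378). Efna1, an ephrin-A ligand (−1.09), Sema7a, a membrane-anchored semaphorin (−1.28), Tns3, a tensin of focal adhesions (−1.28), App (−0.85) and Txnip, an inhibitor of thioredoxin (−0.91), were lower at adjusted p of 0.00787 to 0.026. These genes were chosen for mention after their values were seen.

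Among the genes that rose, Dmbt1 stood out by level and by the number of cells that carried it. It encodes a secreted scavenger receptor cysteine-rich glycoprotein of mucosal surfaces (chromosome 7, 131032053 to 131121630). Dmbt1 had 1673, 911, 1495 and 1649 TPM in the Lgr5-low cells and 287.1, 304.6, 202.6 and 84.1 TPM in the Lgr5-high cells (log2 difference of 2.82, SE 0.31, adjusted p = 0.0046 in limma; 0.0476 with the most influential set left out). It reached 1000 TPM in 15, 5, 10 and 10 of 23 members and in 2, 3, 0 and 1 of 23 Lgr5-high cells, so HFD 2 showed the smallest difference. Across the Lgr5 rank groups, low to high, it was 1673, 906, 210.6 and 287.1 TPM in HFD 1, 911, 693, 373.6 and 304.6 TPM in HFD 2, 1495, 272.2, 270.4 and 202.6 TPM in control 1 and 1649, 526, 423 and 84.1 TPM in control 2. In control 1 the step was between the Lgr5-low cells and the other groups, whereas HFD 2 declined gradually.

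Rbp7, a cellular retinol-binding protein, showed the largest called rise from a low level, with 10.6, 19.6, 19.2 and 22.9 TPM in the Lgr5-low cells and 1.11, 1.57, 0 and 1.33 TPM in the Lgr5-high cells (log2 difference of 3.29, SE 0.43, adjusted p = 0.0088 in limma). It was at 1 TPM or more in 31 of 92 members (33.7%, 95% Clopper-Pearson interval 24.2 to 44.3%) and in 3 of 92 Lgr5-high cells (3.26%, 0.678 to 9.23%), where the intervals cover counting error only. Zfp493, a zinc finger gene, was held by 17 members and 4 Lgr5-high cells (log2 difference of 2.54, SE 0.49, adjusted p = 0.0463 in limma). Slc35b1, a nucleotide transporter of the endoplasmic reticulum, had 53.5, 79.4, 31.5 and 38.6 TPM in Lgr5-low against 21.9, 32.2, 11.8 and 8.41 TPM in Lgr5-high cells (log2 difference of 1.49, SE 0.24, adjusted p = 0.0239 in limma). Each of these 3 lost its call without some single set (highest adjusted p 0.0713, 0.194 and 0.105).

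**Figure D4:**
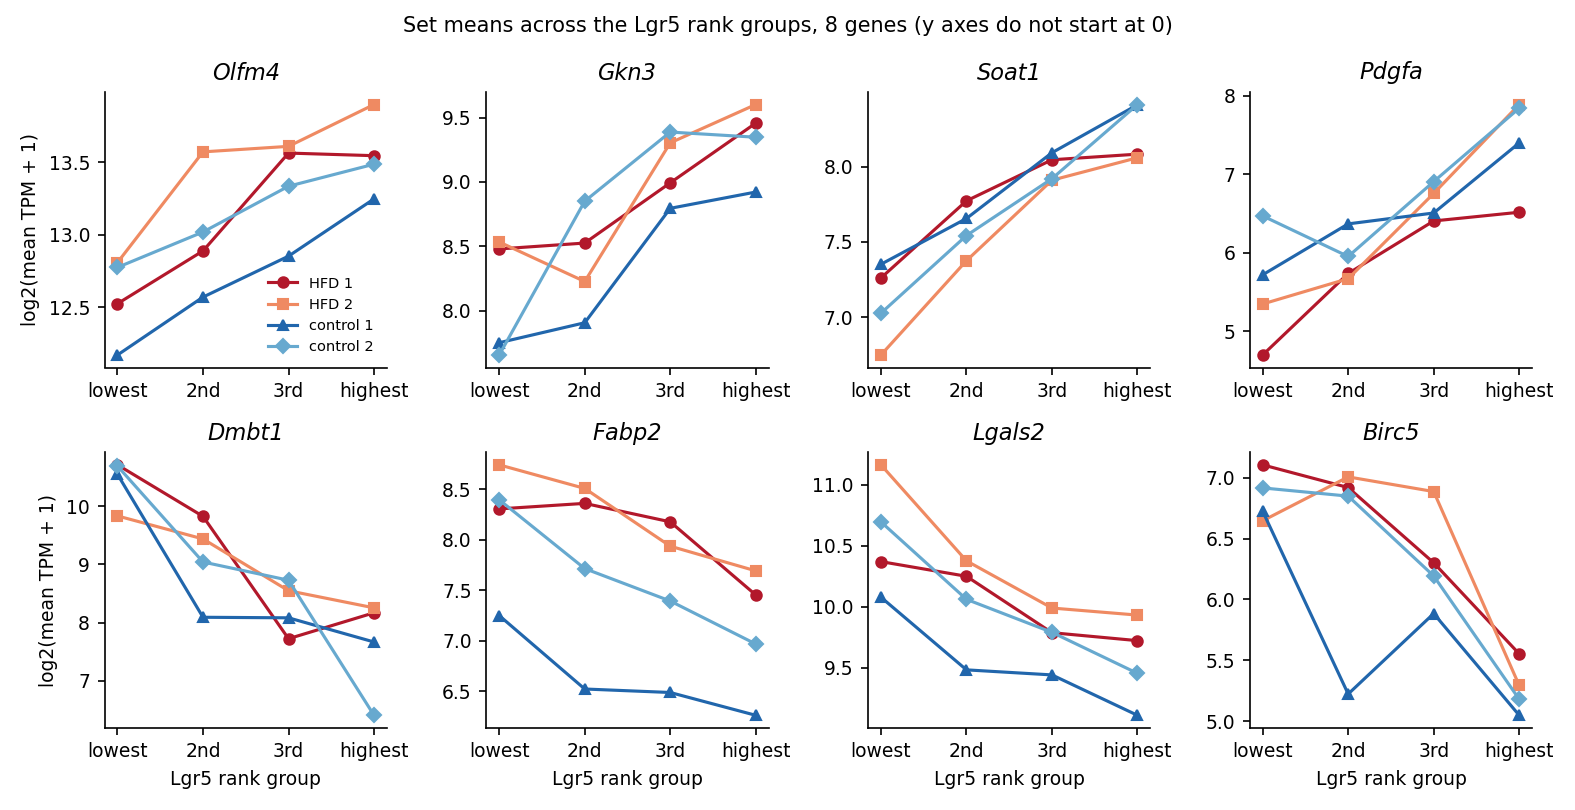
Set means as log2(mean TPM + 1) (y axes, which do not start at 0) across the 4 Lgr5 rank groups, low to high (x axes), for 4 genes called lower and 4 called higher in the Lgr5-low cells, with 1 line per set. Dmbt1, Fabp2 and Lgals2 are at or near their maximum in the Lgr5-low cells, and Birc5 of HFD 2 is higher in the 2 middle groups than in the lowest.

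Among absorptive genes Fabp2 rose. Fabp2, the intestinal fatty acid-binding protein (chromosome 3, 122895072 to 122899506), had 315.2, 427, 151.2 and 335.5 TPM in the Lgr5-low cells and 174.3, 205.8, 75.8 and 124.2 TPM in the Lgr5-high cells (log2 difference of 1.08, SE 0.13, adjusted p = 0.00721 in limma; 0.0476 with the most influential set left out). Its groups overlapped across sets, and within each set the Lgr5-low cells had the higher level. It was the only call among 23 tested enterocyte genes, of which 5 were higher and 2 lower in all 4 sets (0.494% of all genes were called higher, 11.01% were higher and 11.1% lower in all 4 sets). The list's median was 0.12, and 0.016 with groups matched on gene number. Its liver-type relative Fabp1 had 450.1, 579, 46.6 and 47.01 TPM in Lgr5-low against 207.4, 327.5, 8.91 and 41.2 TPM in Lgr5-high cells (log2 difference of 1.10, SE 0.27, adjusted p = 0.0973 in limma). Alpi, the brush border alkaline phosphatase of mature enterocytes, stayed between 0.297 and 2.67 TPM in the Lgr5-low cells, and 6 of 92 members carried it at 1 TPM or more. Krt20, a keratin of the villus, was found in 2 members and 2 Lgr5-high cells. Apoa1, an apolipoprotein of mature enterocytes, had 2.66, 12.02, 4.33 and 0 TPM in Lgr5-low against 0.238, 0.727, 1.21 and 11.8 TPM in Lgr5-high cells (log2 difference of 0.52, SE 0.89, adjusted p = 0.854 in limma). Alpi, Krt20 and Apoa1 were thus below 1 TPM in most members (15 of 92 carried Apoa1). Other genes of the list were widespread in both groups. Vil1, Prap1 and Lgals4 were found in 89, 89 and 92 of 92 members and in 91, 89 and 92 of 92 Lgr5-high cells.

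Other called rises included epithelial genes outside that list, named after their values were seen. Lgals2, a galectin, had 1323, 2294, 1080.2 and 1658 TPM in the Lgr5-low cells and 844, 976, 551 and 700.3 TPM in the Lgr5-high cells (log2 difference of 1.02, SE 0.10, adjusted p = 0.00301 in limma; 0.027 with the most influential set left out). Phgr1 had 313.1, 660.2, 260.3 and 533 TPM in Lgr5-low against 230.2, 238.5, 119.7 and 90.7 TPM in Lgr5-high cells (log2 difference of 1.39, SE 0.26, adjusted p = 0.0406 in limma), and Krt8, a keratin of simple epithelia, had 905, 1123, 794 and 954 TPM in Lgr5-low against 729, 719, 548 and 644 TPM in Lgr5-high cells (log2 difference of 0.51, SE 0.081, adjusted p = 0.0222 in limma). Crip1, a LIM domain protein (1.04), Ces2e, a carboxylesterase (0.98), and Reg3g, an antimicrobial lectin (1.32), were also higher, at adjusted p of 0.00721 to 0.0463. Phgr1, Krt8, Crip1, Ces2e and Reg3g each lost the call without some single set (highest adjusted p 0.166, 0.135, 0.0713, 0.133 and 0.223). Against all other cells Reg3g had 0.18 (limma adjusted p = 0.739). Its highest 2 members in control 1 held 4402 and 4003 TPM. Krt8 was the only call among the 7 pan-epithelial genes.

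Cell cycle genes formed the largest group of rises among the lists. Of 54 G2/M genes, all tested, 12 rose and none fell (0.494% and 0.315% of all genes). In all 4 sets 44 were higher and none lower (11.01% and 11.1% of all genes), and the list's median log2 difference was 1.02. Birc5, which encodes survivin of the chromosomal passenger complex (chromosome 11, 117849251 to 117855743), had 136.8, 99.2, 104.8 and 119.9 TPM in the Lgr5-low cells and 45.9, 38.2, 32.1 and 35.2 TPM in the Lgr5-high cells (log2 difference of 1.58, SE 0.17, adjusted p = 0.0036 in limma). Ube2c, the ubiquitin-conjugating enzyme of the anaphase-promoting complex, had 393.6, 234.7, 262.05 and 417 TPM in Lgr5-low against 166.05, 54.1, 135.2 and 190.8 TPM in Lgr5-high cells (log2 difference of 1.35, SE 0.18, adjusted p = 0.0088 in limma). Tubb4b, a beta tubulin, had 909, 642, 842 and 862 TPM in Lgr5-low against 481, 306.8, 401 and 404 TPM in Lgr5-high cells (log2 difference of 1.04, SE 0.082, adjusted p = 0.000828 in limma). None of the 3 overlapped between the groups, and the highest adjusted p with a set left out was 0.0436, 0.0479 and 0.0156.

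The other 9 called G2/M genes were Ccnb1 (1.46) and Ccnb2 (1.37), the B-type cyclins that drive entry into mitosis, Cenpa, the centromeric histone H3 variant (1.58), Top2a, the topoisomerase that untangles replicated DNA (1.26), Cdca8, a passenger complex subunit (1.04), Cdca3 (1.23), Cks1b (1.40) and Cks2 (0.99), which bind cyclin-dependent kinases, and Hmgb2, a chromatin protein (1.04). Ccnb1 was found at 1 TPM or more in 51 of 92 members and 18 of 92 Lgr5-high cells. Called rises outside the list included Ccna2, cyclin A2 (log2 difference of 1.21, SE 0.15, adjusted p = 0.00787 in limma), Pbk, a mitotic kinase (log2 difference of 1.68, SE 0.27, adjusted p = 0.0222 in limma), and Rad9a, a subunit of the DNA damage checkpoint clamp (log2 difference of 1.60, SE 0.30, adjusted p = 0.044 in limma). Hist1h2ao, a histone H2A gene with near-identical copies among which reads can be split, had a log2 difference of 1.78 and is uncertain for that reason. Mki67, the proliferation marker, had 57.4, 33.2, 57.7 and 52.4 TPM in Lgr5-low against 32.8, 5.62, 30.9 and 14.2 TPM in Lgr5-high cells and did not pass (log2 difference of 1.46, SE 0.30, adjusted p = 0.0589 in limma).

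S phase genes leaned the same way with no call. Of 40, all tested, none was called by limma, 21 were higher and none lower in all 4 sets (11.01% and 11.1% of all genes), and the median was 0.57. Pcna, the replication clamp, had 347.5, 310.04, 172.8 and 169.02 TPM in the Lgr5-low cells and 278.1, 188.5, 119.2 and 127.3 TPM in the Lgr5-high cells (log2 difference of 0.49, SE 0.12, adjusted p = 0.093 in limma), and E2f8, a transcription factor of the cycle, came nearest to the threshold (log2 difference of 1.47, SE 0.29, adjusted p = 0.0531 in limma). Averaging single-cell logarithms called 22 S phase and 35 G2/M genes higher. Per cell, the G2/M score averaged 3.62, 2.68, 3.603 and 3.21 in the Lgr5-low cells and 2.34, 1.64, 2.26 and 1.73 in the Lgr5-high cells, and the S phase score 4.40, 3.89, 3.77 and 3.36 in Lgr5-low against 3.38, 3.12, 2.56 and 2.08 in Lgr5-high cells (exact two-sided sign-flip p = 0.125 for each, the smallest possible). The rise was not shared by all members: 57 of 92 exceeded their set's median G2/M score, as did 61 of 93 cells of the next group and 25 of 92 Lgr5-high cells. In that next group the G2/M score averaged 3.39, 3.53, 2.26 and 3.28, and the S phase score 3.81, 4.53, 3.48 and 3.61. Both exceeded the Lgr5-low values in HFD 2 and control 2. With all other cells as the comparison, Birc5 had 0.70 (limma adjusted p = 0.159), Ube2c 0.51 (0.274) and Tubb4b 0.44 (0.265).

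The cell cycle difference went with the number of genes detected. When the Lgr5 groups were taken separately among the cells with fewer and with more genes of each set, the difference in detected genes shrank to 148.9 and the median of the G2/M list to 0.13, with no G2/M or S phase gene called. Birc5 then had 0.78 (limma adjusted p = 0.231), Ube2c 0.25 (0.714) and Ccnb1 0.14 (0.877). The S phase median was 0.32. These genes outside the cycle were still called: Olfm4 had −0.91 (adjusted p = 0.00118), Gkn3 −0.97 (0.017), Dmbt1 2.40 (0.00118), Fabp2 0.93 (0.0438) and Lgals2 0.996 (0.00118). In that fit 22 of the 95 calls were made again and 94 kept their direction, the exception being the beta tubulin Tubb5 (−0.027, against 0.54 here). The part of gene number in these rises was not tested further.

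The promoters of the called G2/M genes are shown because these genes moved together. Mitotic genes are known to share 2 kinds of element, CCAAT boxes bound by NF-Y and the cell cycle homology region, whose core is TTTGAA and which binds the DREAM and B-MYB complexes. In the RefSeq promoter windows (250 bases before to 50 after the start, GRCm38.p6), read on both strands, TTTGAA was present for 9 of the 12 genes and at least 2 CCAAT boxes for 11 of 12. The shares over 27025 genes with a window were 20.2% and 13.3%. Both together were found for 9 of 12, beside 2.81% of all genes, 0 of 34 other called rises with a window and 0 of 31 called falls. The 12 come from a list of G2/M genes whose uncalled members were not counted. These shares therefore do not set the called genes apart from the rest of that list. Below are 4 examples, from 130 bases before to 30 after the start, read in the direction of the gene, with both motifs in capitals on whichever strand they lie.
Ube2c (chr2:164769799-164769958, plus strand): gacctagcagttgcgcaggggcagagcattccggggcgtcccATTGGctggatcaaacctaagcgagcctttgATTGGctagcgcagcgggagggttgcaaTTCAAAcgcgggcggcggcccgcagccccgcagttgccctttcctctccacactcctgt
Ccnb2 (chr9:70421525-70421684, minus strand): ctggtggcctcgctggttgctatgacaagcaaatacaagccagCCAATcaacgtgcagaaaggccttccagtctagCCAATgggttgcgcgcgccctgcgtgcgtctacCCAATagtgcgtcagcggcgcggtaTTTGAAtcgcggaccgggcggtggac
Cenpa (chr5:30666756-30666915, plus strand): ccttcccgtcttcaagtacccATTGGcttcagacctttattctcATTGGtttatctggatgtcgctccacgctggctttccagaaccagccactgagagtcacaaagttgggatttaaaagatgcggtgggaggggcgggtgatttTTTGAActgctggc
Cdca8 (chr4:124936888-124937047, minus strand): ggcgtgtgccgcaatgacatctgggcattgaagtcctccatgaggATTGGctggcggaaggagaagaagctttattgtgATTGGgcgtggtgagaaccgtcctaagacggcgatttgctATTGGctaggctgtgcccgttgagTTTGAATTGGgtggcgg
In Ccnb2 the 3 CCAAT boxes follow each other at intervals of 33 and 33 bases ahead of the single TTTGAA. In Cdca8 the last CCAAT box, read on the other strand, overlaps TTTGAA by 1 base. A match to these letters is a description of the sequence and does not show that a factor binds there.

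A few genes of oxidative metabolism rose by small amounts. Of 46 nuclear-encoded respiratory chain genes, all tested, 4 rose and none fell (0.494% and 0.315% of all genes). In all 4 sets 26 were higher and none lower (11.01% and 11.1% of all genes), and the list's median was 0.29. Uqcrq, of complex III, had 457, 734, 341.6 and 379.2 TPM in the Lgr5-low cells and 307.1, 413, 188.8 and 296.8 TPM in the Lgr5-high cells (log2 difference of 0.65, SE 0.11, adjusted p = 0.0285 in limma). Cox5a and Cox5b, of cytochrome c oxidase, had log2 differences of 0.51 and 0.51, and Sdhb, of succinate dehydrogenase, had 0.48, at adjusted p of 0.026 to 0.0403. All 4 lost the call when some single set was left out (highest adjusted p 0.143 to 0.206), and none of the 46 was called with groups matched on gene number, where the list's median was 0.23. With the 18 and 17 cells of secretory kinds left out 1 was called, and 1 with the 15 members at 0 Lgr5 left out, both alternatives chosen after seeing the data. Ldha, lactate dehydrogenase A of glycolysis, had 883, 999, 642 and 597 TPM in Lgr5-low against 541, 674, 310.8 and 362.5 TPM in Lgr5-high cells (log2 difference of 0.76, SE 0.095, adjusted p = 0.00777 in limma), and 0.69 (0.0279) when matched. Pycard, the inflammasome adaptor ASC (0.71), and Txn1, thioredoxin (0.72), were also called higher (adjusted p = 0.0088 and 0.0222).

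Among translation genes the calls went both ways. Eef1a1 fell, while the translation factor gene Eif5a (0.49, adjusted p = 0.0277 in limma) rose. Mrpl12, of the mitochondrial ribosome and outside the list below, also rose (0.62, adjusted p = 0.0314 in limma). Both rises lost the call when some single set was left out (highest adjusted p 0.19 and 0.173). None of 75 ribosomal protein genes was called by limma, 17 were lower and 2 higher in all 4 sets (0.810% of all genes were called, 11.1% were lower and 11.01% higher in all 4 sets), and the median was −0.047. Eef1a1, translation elongation factor 1 alpha, had 9025, 11986, 7585 and 12454 TPM in the Lgr5-low cells and 10676, 14517, 9538 and 14816 TPM in the Lgr5-high cells (log2 difference of −0.27, SE 0.034, adjusted p = 0.00743 in limma), the only fall among 15 housekeeping genes. Ppia, a peptidyl-prolyl isomerase (0.38, adjusted p = 0.0222), and Tubb5 (0.54, adjusted p = 0.0384) rose in that list, whose median was 0.14.

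No secretory list gave a call. Some of the listed genes were widespread, and at 10 TPM or more 61 of 92 Lgr5-low and 48 of 92 Lgr5-high cells held at least 3 goblet markers. Of the tested genes none passed among 18 goblet, 19 Paneth, 3 enteroendocrine or 5 tuft genes in the limma fit, where 0.810% of all genes were called. Their median log2 differences were 0.88, 0.65, 0.17 and 0.68, beside −0.016 for all genes. The absence of calls therefore does not show that these genes were level. Without the 18 and 17 cells that these lists marked at 100 TPM, the medians were 0.012, −1.33, −0.67 and 0.75. At 100 TPM or more for at least 3 markers there were 12 goblet-marked, 9 Paneth-marked, 1 enteroendocrine-marked and 0 tuft-marked members, against 9, 9, 0 and 0 Lgr5-high cells. Muc2, the gel-forming mucin of goblet cells, was at 1 TPM or more in 3 members and 4 Lgr5-high cells. Tff3, a trefoil peptide of goblet cells, had 122.96, 692, 432 and 125.9 TPM in the Lgr5-low cells and 209.8, 22.3, 74.02 and 3.30 TPM in the Lgr5-high cells (log2 difference of 2.89, SE 0.74, adjusted p = 0.106 in limma), with 11 Lgr5-low and 8 Lgr5-high cells carrying it. It was higher in 3 of 4 sets, and passed with groups matched on gene number (5.17, adjusted p = 0.026), as did the goblet gene Fcgbp (5.41, 0.00532) and Atoh1 (3.43, 0.03), the transcription factor of the secretory fate. Few cells carried these genes, 10 Lgr5-low and 5 Lgr5-high for Fcgbp and 8 and 2 for Atoh1. Without the cells marked at 100 TPM, which Tff3 and Fcgbp help to pick, Tff3 had 0.32 (limma adjusted p = 0.945). Fcgbp and Atoh1 were then not among the genes tested. Chga, of enteroendocrine cells, was found in 1 member, and Dclk1, of tuft cells, in 0 of 92, which allows a share of up to 3.26% with a detected transcript.

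With the 18 members and 17 Lgr5-high cells of these secretory kinds left out, an alternative chosen after seeing the data, 56 of the 95 calls were made again and all 95 kept their direction. Olfm4 then had −0.90 (limma adjusted p = 0.000162), Dmbt1 2.73 (0.00481), Fabp2 0.98 (0.0186) and Birc5 1.91 (0.0042), and 12 G2/M genes were called higher, without Cdca8 (0.0818) and with Mki67 (0.0493). None of 10 tested genes of the Notch pathway and cell fate was called by limma with all cells, and the median was 0.12. Dll1, a Notch ligand, had 14.4, 48.97, 16.2 and 33.8 TPM in the Lgr5-low cells and 25.6, 6.99, 15.3 and 12.5 TPM in the Lgr5-high cells (log2 difference of 0.82, SE 0.48, adjusted p = 0.485 in limma), Dll4, another ligand, 9.73, 16.04, 14.3 and 6.57 TPM in Lgr5-low against 9.17, 0.314, 1.44 and 0.900 TPM in Lgr5-high cells (log2 difference of 2.10, SE 0.56, adjusted p = 0.117 in limma), and Hes1, the target that represses Atoh1, 43.3, 68.8, 21.5 and 70.7 TPM in Lgr5-low against 42.3, 62.7, 35.96 and 56.4 TPM in Lgr5-high cells (log2 difference of −0.058, SE 0.22, adjusted p = 0.942 in limma).

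The 15 members listed at 0 for Lgr5 differed among themselves and from the other members. Their stem cell score ran from 2.37 to 5.08 with a median of 4.23, against a median of 4.89 in the 77 members above 0 and 5.59 in the Lgr5-high cells. Their G2/M score ranged from 0.67 to 5.97 with a median of 1.88, against 2.74 in the other members and 1.32 in the Lgr5-high cells, and their enterocyte score had a median of 3.05, against 2.85 in the other members and 2.70 in the Lgr5-high cells. They held a median of 6611 detected genes, fewer than the 6918 of the other members and more than the 6145.5 of the Lgr5-high cells. These are descriptions of cells, which are not replicates. Without the 15 cells, an alternative chosen after seeing the data, 73 of the 95 calls were made again, all 95 kept their direction, and 5 stem cell genes fell and 14 G2/M genes rose.

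Within the Lgr5-low cells the diets differed in few genes. Comparing 2 HFD with 2 control sets, 7 of 11611 genes were called (limma, 0.0603%), 2 higher and 5 lower on HFD, while 688 had an unadjusted p under 0.05. One of the 5, a small RNA entry, is left unnamed. Every one of these calls was lost without control 1, without control 2 or without HFD 1, and Reg3b alone among the 6 named genes was called without HFD 2, while 13 genes were then called higher. No call was made with no trend of the spread or with no filter on low genes. With 2 sets per diet a single value cannot reach an exact permutation p below 0.333. The median log2 difference of all genes was 0.11, and it was −0.064 with Rn45s left out of the total, where Fabp1 and Reg3b were the calls that remained.

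Fabp1, which binds fatty acids and is a PPAR target (chromosome 6, 71199827 to 71205023), was higher on HFD, with 450.1 and 579 TPM in the HFD sets, against 46.6 and 47.01 TPM in the control sets (log2 difference of 3.42, SE 0.28, adjusted p = 0.000312 in limma; 0.0788 to 0.932 with a set left out). At 1 TPM or more it was found in 20 and 18 of 23 HFD members, against 10 and 13 of 23 control members. The Lgr5-high cells had 207.4 and 327.5 TPM in the HFD sets, against 8.91 and 41.2 TPM in the control sets, so the diets were apart there too. Reg3b, an antimicrobial lectin, was lower, with 1.40 and 0 TPM in the HFD sets, against 201.5 and 125.5 TPM in the control sets (log2 difference of −6.69, SE 0.52, adjusted p = 0.000312 in limma). It came from 1 and 0 HFD members and from 4 and 1 control members, so the value of control 2 is that of 1 cell with 2885 TPM. Its paralogue Reg3g had 39.4 and 44.2 TPM in the HFD sets, against 380.99 and 166.7 TPM in the control sets (log2 difference of −2.57, SE 0.37, adjusted p = 0.0371 in limma), and 10 and 7 HFD members, against 11 and 12 control members, carried it. Its highest 2 cells held 4402 and 4003 TPM in control 1, and 1304 and 1101 TPM in control 2, and with cell-wise logarithms the difference was −1.10 (adjusted p = 0.973). As paralogues, they may share reads.

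Class II antigen presentation genes were lower on HFD in these cells as well, a difference already known for the whole series and no independent finding here. H2-Aa, an alpha chain, had 11.1 and 32.4 TPM in the HFD sets, against 221.7 and 158.6 TPM in the control sets (log2 difference of −3.23, SE 0.44, adjusted p = 0.0271 in limma), and H2-Eb1, a beta chain, had 30.3 and 29.9 TPM in the HFD sets, against 150.6 and 112.8 TPM in the control sets (log2 difference of −2.08, SE 0.31, adjusted p = 0.0404 in limma). Of 7 tested class II genes these 2 were called, where 0.0603% of all genes were called for diet. Between the Lgr5 groups none of the 7 was called, 3 were lower and none higher in all 4 sets (11.1% and 11.01% of all genes), and Cd74, the invariant chain, had 146.2, 120.6, 489 and 387.8 TPM in the Lgr5-low cells and 336.4, 128.5, 516 and 462 TPM in the Lgr5-high cells (log2 difference of −0.40, SE 0.18, adjusted p = 0.329 in limma). H2-Ab1 had 32.4, 98.5, 312.02 and 254.5 TPM in Lgr5-low against 156.9, 197.2, 341.9 and 312.3 TPM in Lgr5-high cells (log2 difference of −0.91, SE 0.28, adjusted p = 0.172 in limma).

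Defa24, an alpha defensin of Paneth cells with close paralogues among which reads can be split, had 9163 and 242.7 TPM in the HFD sets, against 6.59 and 0.465 TPM in the control sets (log2 difference of 8.81, SE 1.22, adjusted p = 0.0273 in limma). In HFD 1 a single member with 208740 TPM of Defa24, which also held 30624 TPM of the Paneth cell lysozyme Lyz1, made up most of it, and the mean without that cell was 90.95 TPM. With cell-wise logarithms the log2 difference was 2.30 (limma adjusted p = 0.0327). With the cells of at least 3 secretory markers at 100 TPM left out it was 2.90 (limma adjusted p = 0.448). Defa24 is itself 1 of the markers that pick those cells, so the smaller difference is partly built in. At 1 TPM or more Defa24 was found in 7 and 6 HFD members, against 1 and 1 control members. Lyz1 had 1391 and 91.9 TPM in the HFD sets, against 16.2 and 9.14 TPM in the control sets, in 7 and 9 HFD members and 2 and 5 control members. The other 5 named genes were called with the cells marked at 100 TPM left out, an alternative chosen after seeing the data. Adjusted p was then 1.27e-05 for Fabp1, 7.37e-08 for Reg3b, 0.000244 for Reg3g, 0.000796 for H2-Aa and 0.0324 for H2-Eb1 (limma). With the cells of 3 such markers at 10 TPM left out, which removed 65 of 92 members, none of the 5 was called (limma adjusted p of 0.713 to 0.759).

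**Figure D5:**
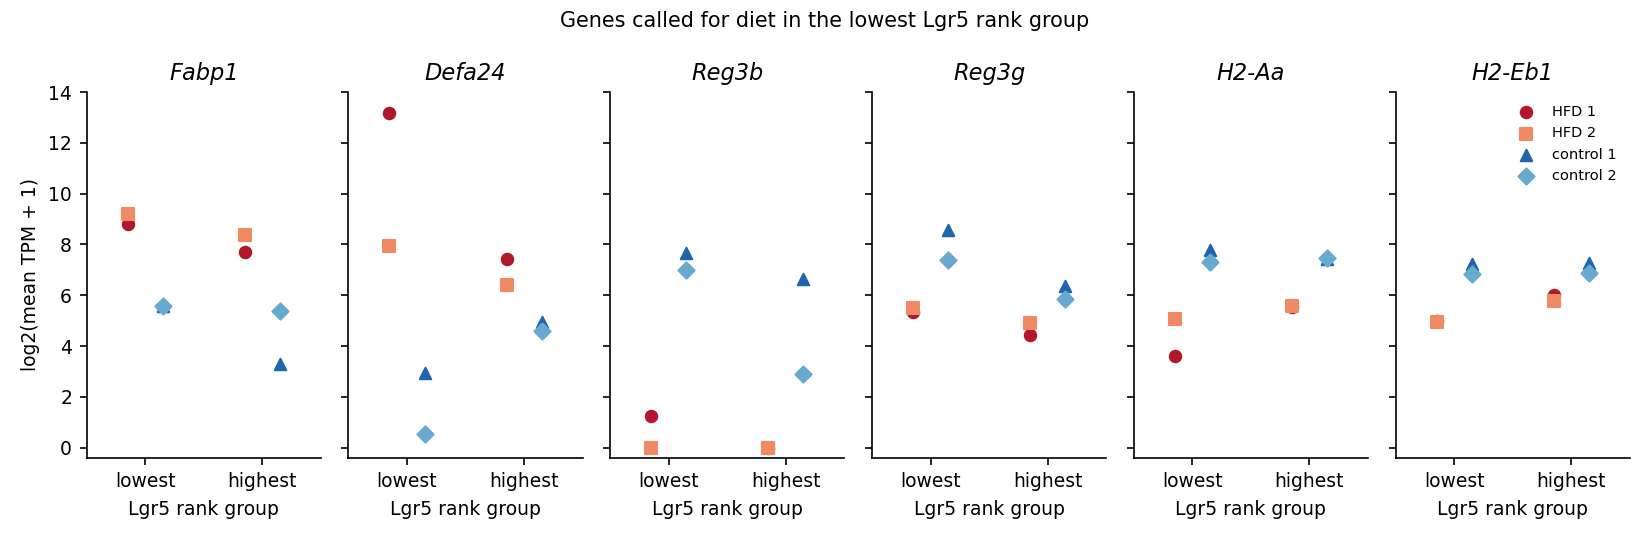
The 6 named genes called between diets in the Lgr5-low cells, as log2(mean TPM + 1) (shared y axis), in the Lgr5-low and Lgr5-high cells (x axes), with HFD sets left and control sets right and 1 symbol per set. In the Lgr5-low cells the HFD sets lie apart from the control sets for all 6 genes, and for H2-Eb1 the 2 HFD sets coincide.

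No gene changed its response to diet detectably with Lgr5 level. In limma without a trend on the 4 within-set differences, 0 of 11730 genes (0%) were called, the smallest adjusted p was 0.97, and 571 genes had an unadjusted p under 0.05. For Fabp1 the diet difference in the Lgr5-low cells minus that in the Lgr5-high cells was −0.26, SE 0.81, for H2-Aa −1.33, SE 0.65 and for Reg3g −1.12, SE 0.49. These errors are wide with 2 sets per diet, so a difference of that size was not detectable, and the values do not show that the diets act alike at both Lgr5 levels.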

How the data were processed

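The authors deposited TPM for each gene of each cell and, per the submitters' processing notes, used Bowtie2, RSEM and mm10, with versions and annotation not given in the sources used here. The table held 23420 rows, of which 27 with symbols turned into dates were left out, and no 2 cells were identical. Positions come from GENCODE M21, promoters from RefSeq. TPM was averaged over the 23 cells of a set and Lgr5 group, and log2(mean TPM + 1) was fitted for genes averaging 1 TPM or more with limma 3.58.1 (R 4.3.3; trend, two-sided, adjusted p under 0.05). This scale understates changes of low genes. List scores are the mean log2(TPM + 1) per cell. A cell carries a transcript at 1 TPM or more. The fits were tested on simulated data. The members, gene lists and alternatives were chosen with earlier results of these data known. Named genes are the 10 largest called rises and falls with 1 sign in all sets (for diet, without overlap), up to 4 of each list, all calls of a list, and 30 fixed genes; predicted genes, clone names and small RNAs are not named. No doublet caller was run. The labels do not say whether same-numbered sets of the 2 diets share more than a number.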

Additional observations from a re-analysis of the deposited data

Results flagged for a closer look

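Of 73 within-set differences examined (Lgr5-low minus Lgr5-high cells), 6 had 1 set far from the other 3, where chance alone gives about 1 group in 20. Slc35b1 had 2.07 on the log2 scale in control 2, against 1.25 to 1.34 in the other sets. Axin2 had −1.08 in control 2, against −0.279 to −0.127. Cd74 had −1.2 in HFD 1, against −0.252 to −0.0775. Rn45s had −0.156 in HFD 1, against −0.0396 to −0.0275. The apoptosis and p53 score differed by 0.541 in HFD 1, against 0.196 to 0.241, and the leukocyte gene Ptprc by −0.0447 in HFD 2, where the others were at 0.

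In 2 cases both HFD sets moved one way and both control sets the other. The log2 difference of Defa24 averaged 3.62 in the HFD sets and −3.03 in the control sets, 6.65 apart, with an adjusted p = 0.97 for that difference (limma). The Paneth score averaged 0.204 in the HFD sets and −0.244 in the control sets, 0.448 apart, and that difference was not tested. The HFD 1 value of Defa24 rests mostly on 1 cell.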

How the results depend on the processing

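Between the Lgr5-low and Lgr5-high cells, 58 higher and 37 lower calls became 90 and 52 with a mean of at least 5 TPM, 44 and 24 with a pseudocount of 0.1, 503 and 120 with cell-wise logarithms, 13 and 13 with groups matched on gene number, 6 and 19 against all other cells, 3 and 6 with no replicate block, and 0 and 0 with no filter, with no trend, or with cells of 3 markers of 1 secretory lineage at 10 TPM left out. That last setting removed 65 of 92 members and 54 of 92 Lgr5-high cells, since some goblet markers are widely expressed. Leaving out the cells with such markers at 100 TPM gave 42 and 22. Without 1 set each, the counts ran from 9 to 48 higher and from 8 to 32 lower. Among the genes called between these groups, the only direction that turned was that of Tubb5, at −0.027 with groups matched on gene number. Some uncalled genes also changed sign, such as Ephb2, at 0.23 here and −0.15 against all other cells. For diet within the Lgr5-low cells, 2 higher and 5 lower calls became 1 and 1 without Rn45s, 5 higher with 3 rank groups per set in place of 4, 3 lower with gene-number matching, 0 and 0 with no filter, no trend or the secretory-marker cells left out, and 0 to 13 higher and 0 to 1 lower without 1 set each. With a replicate block the counts were 40 and 10. The deviations of same-numbered sets correlated at 0.046 over 11612 genes, which does not settle whether the numbers pair the sets. Mean detected genes in the Lgr5-low cells were 7173 and 6268 in HFD 1 and HFD 2, and 7269 and 6369 in control 1 and control 2. Pairing was not tested further. No gene was called for a difference of the diet effect between the Lgr5 groups in the settings run for it, which leave out the other comparison cells and the changes of block and trend. The S phase score difference of 1.07 was 0.58 when matched on gene number and 1.58 without secretory-marker cells, the G2/M difference of 1.29 was 0.42 and 1.67 (1.48 with the 100 TPM limit), and the difference of 500.01 detected genes was 148.9 when matched. The stem cell, respiratory chain and enterocyte scores moved by less than the spread between sets in each setting. The cause of these shifts was not tested. Depth is unknown, with 23 cells per set and group, 2 sets per diet and no counts, so small differences and rare transcripts are poorly resolved.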

Other observations

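Cdkn1a, the cyclin-dependent kinase inhibitor p21, was at 1 TPM or more in 16 of 92 Lgr5-low cells (17.4%, 95% Clopper-Pearson interval 10.3 to 26.7%) and in 2 of 92 Lgr5-high cells (2.17%, 0.264 to 7.63%). Its mean was 1.88, 10.7, 5.19 and 4.51 TPM in the Lgr5-low cells and 0.400, 0, 0.175 and 0 TPM in the Lgr5-high cells, higher in all 4 sets and short of the threshold (log2 difference of 2.36, SE 0.54, adjusted p = 0.0805 in limma). None of 15 apoptosis and p53 genes was called by limma, 2 were higher and none lower in all 4 sets (11.01% and 11.1% of all genes), and the list's median was 0.011. Among 8 tested BMP targets none was called and the median was 0.41; Id1, an inhibitor of differentiation factors, had 37.9, 54.5, 46.6 and 77.4 TPM in the Lgr5-low cells and 57.3, 39.2, 38.8 and 25.2 TPM in the Lgr5-high cells (log2 difference of 0.43, SE 0.30, adjusted p = 0.579 in limma), with HFD 1 opposite to the other sets. Of 9 tested reserve and regenerative stem cell genes none was called and the median was 0.042; Lrig1, a growth factor receptor antagonist, had 36.3, 30.4, 42.2 and 22.6 TPM in Lgr5-low against 46.99, 59.02, 66.2 and 41.7 TPM in Lgr5-high cells (log2 difference of −0.70, SE 0.20, adjusted p = 0.145 in limma), and Clu, of regenerative cells, was found in 1 Lgr5-low and 4 Lgr5-high cells. Plcg2, a phospholipase that tuft cells express, was carried by 22 of 92 Lgr5-low and 7 of 92 Lgr5-high cells (log2 difference of 1.94, SE 0.55, adjusted p = 0.137 in limma). Lists of T cell, B cell, myeloid and stromal genes had 3, 1, 2 and 0 tested genes and no call. These genes were chosen for mention after their values were seen.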
